A study of Rattus norvegicus with 12 samples.

Results

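The genes described here are 55 collagens, basement membrane components, proteoglycans and other matrix genes of the scar that forms after spinal cord injury. They were listed by name, and 36 of them could be tied to a row among the 17423 genes of the tables. RNA was sequenced from the contused cord of 12 female rats, aged 16 to 18 weeks at injury, in 4 groups of 3 rats. AN (athymic nude, Hsd:RH-rnu/rnu) rats have no functional thymus. The paper describes their T-like cells as fewer and less mature than normal T cells, and as building up with age. SD (Sprague-Dawley, Hsd:SD) rats have an intact immune system. All rats received a contusion of 200 kdyn, and a short cord segment through the lesion was taken at 1 week (acute phase) or 8 weeks (chronic phase). The strains are separate stocks, so athymia and strain background cannot be told apart, and no uninjured cord was analysed here.

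Each table holds 1 FPKM (a fragment count per unit of transcript length, scaled to the mapped fragments) for the 3 rats of a group together. The spread between rats is therefore unknown, and no difference below was tested against it. The number of reads behind each gene is unknown as well. Strain differences are given as log2FC, the log2 ratio of AN to SD FPKM. A difference of at least 2-fold was counted where a gene's mean FPKM over the 4 groups was at least 1, which held for 35 of the 36 members and for 11186 of all genes. In these bulk samples, fewer cells of a type and less RNA per cell cannot be told apart.

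A scar of the injured cord has a fibrotic core, laid down by fibroblasts and perivascular cells, within a rim of reactive astrocytes. Fibrillar collagens are secreted as procollagens, trimmed and assembled into fibrils, and lysyl oxidases then cross-link them. Basement membranes are thin sheets of type IV collagen, laminin and nidogen around vessels, Schwann cells and the glial surface. Chondroitin sulfate proteoglycans of the scar are known for hindering axon growth, while the small leucine-rich proteoglycans bind collagen fibrils.

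Of the 36 tied members, 10 took their name from the supplementary gene table, 1 from a synonym and 25 from their order along the chromosome. The part of that table used for names is sorted by the authors' calls. Whether a gene was tied can thus depend on its strain difference, in the pathway and marker lists as well. The shares of all genes given below run over all rows at the minimum, named or not. The fibrillar collagens tied were Col1a1, Col1a2, Col2a1, Col3a1, Col5a2, Col5a3 and Col11a1, which is 7 of 8. The other interstitial collagens tied were Col6a3, Col8a1, Col12a1 and Col14a1, 4 of 8. The basement membrane was represented by Col4a2, Col15a1, Col18a1, Lama4, Lamb1, Lamc1 and Nid2, 7 of 14. Proteoglycans were Dcn, Lum, Fmod, Acan, Bcan, Ncan, Vcan and Cspg4, 8 of 10. Elastic fibre and cross-linking genes were Fbln2, Fbn1, Eln, Lox, Loxl1 and Loxl2, 6 of 7, and glycoproteins were Fn1, Postn, Sparc and Thbs2, 4 of 8. The 19 members not tied to a row were dropped. They were Col5a1, Col6a1, Col6a2, Col8a2, Col16a1, Col4a1, Col4a5, Lama1, Lama2, Lamb2, Nid1, Hspg2, Bgn, Ogn, Fbln1, Tnc, Tnr, Spp1 and Thbs1.

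Sequence upstream of the annotated start is shown for Col1a2, Postn and Col4a2, which stand for a fibrillar collagen, the glycoprotein with the widest range and the basement membrane. The sequences are from RefSeq on the GRCr8 build, a later build than the RN4 of the values. Capitals in Col1a2 mark a CCAAT box, which lies on the opposite strand and so reads ATTGG here, and further on a TATA box with the letters TATAAA. Capitals in Postn mark the same TATA box letters, and those in Col4a2 mark a GC box with the letters GGGCGG. Col1a2 is shown at chr4:33518307-33518416, + strand, from 250 to 141 bases before its start. Postn is shown at chr2:140677811-140678060, + strand, for the 250 bases before its start. For Col4a2 the 76 bases up to the start of Col4a1 on the other strand are shown, at chr16:84885521-84885596, - strand, since the pair is transcribed head to head.
Col1a2: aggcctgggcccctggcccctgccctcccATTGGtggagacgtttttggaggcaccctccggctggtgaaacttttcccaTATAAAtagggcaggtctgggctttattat
Postn: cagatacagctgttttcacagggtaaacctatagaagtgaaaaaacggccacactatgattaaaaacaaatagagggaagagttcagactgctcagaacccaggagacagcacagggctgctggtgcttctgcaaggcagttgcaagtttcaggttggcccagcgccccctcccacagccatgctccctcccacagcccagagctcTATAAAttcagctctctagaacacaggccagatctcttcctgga
Col4a2: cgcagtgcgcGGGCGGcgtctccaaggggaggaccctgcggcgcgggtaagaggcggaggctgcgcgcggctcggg

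In Postn the TATAAA ends 39 bases before the annotated start, while in Col1a2 it ends 165 bases before it. Of the 36 tied members, 24 had an entry in the promoter table, and both strands of the 250 bases before the start were searched. None of the motifs contains another, though 2 of them can share bases where they meet. TATAAA was found in 4 of the 24 (Col1a2, Postn, Ncan and Lama4), against 12.9% of all 33469 promoters in the table. CCAAT was found in 8 of 24, against 34.0% of all promoters. GGGCGG was found in 14 of 24, against 30.5%. CAGACA, an element bound by SMAD factors of TGF-beta signalling, was found in 6 of 24 (Fbn1, Loxl1, Col5a2, Sparc, Col8a1 and Lama4), against 17.2%. GGAATG, bound by TEAD factors, was found in 4 of 24, against 12.1%, and TGACTCA, bound by AP-1, in 0 of 24, against 4.05%.

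In the acute phase, matrix genes were mostly higher in AN rats. Of the 35 members, 27 had a higher FPKM in AN rats, against 49.8% of all genes, and their median log2FC was 0.49, against -0.00169 for all genes. At least 2-fold higher in AN rats were 5 of 35, namely Postn, Lox, Col11a1, Fn1 and Col8a1, against 1.78% of all genes. All of these but Fn1 took their name from the supplementary gene table, so their being tied can depend on this difference. At least 2-fold lower was 1 of 35, Col2a1, against 11.0%. With a 1.5-fold threshold the counts were 14 higher, against 7.11% of all genes, and 4 lower (Col2a1, Fmod, Bcan and Eln), against 17.7%.

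In the chronic phase the members again lay mostly above SD rats, but with other genes in the lead. A higher FPKM in AN rats was listed for 25 of 35, against 51.5% of all genes, and the median log2FC was 0.46, against 0.01. At least 2-fold higher in AN rats were 5 of 35, namely Col14a1, Col18a1, Postn, Lum and Col15a1, against 2.05% of all genes. None of the 35 was at least 2-fold lower, against 5.35%. With 1.5-fold, 12 were higher, against 6.09%, and 2 were lower (Col2a1 and Col11a1), against 9.35%. Postn was the single member at least 2-fold higher in both phases. Each phase was compared in its own rats. Cell type markers also differed between the strains, as given further on. The summed FPKM of 6 neuron markers was 43.3 in acute AN rats, against 750.4 in acute SD rats. For 6 macrophage and microglia markers it was 8056 against 5014.

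**Figure D1:**
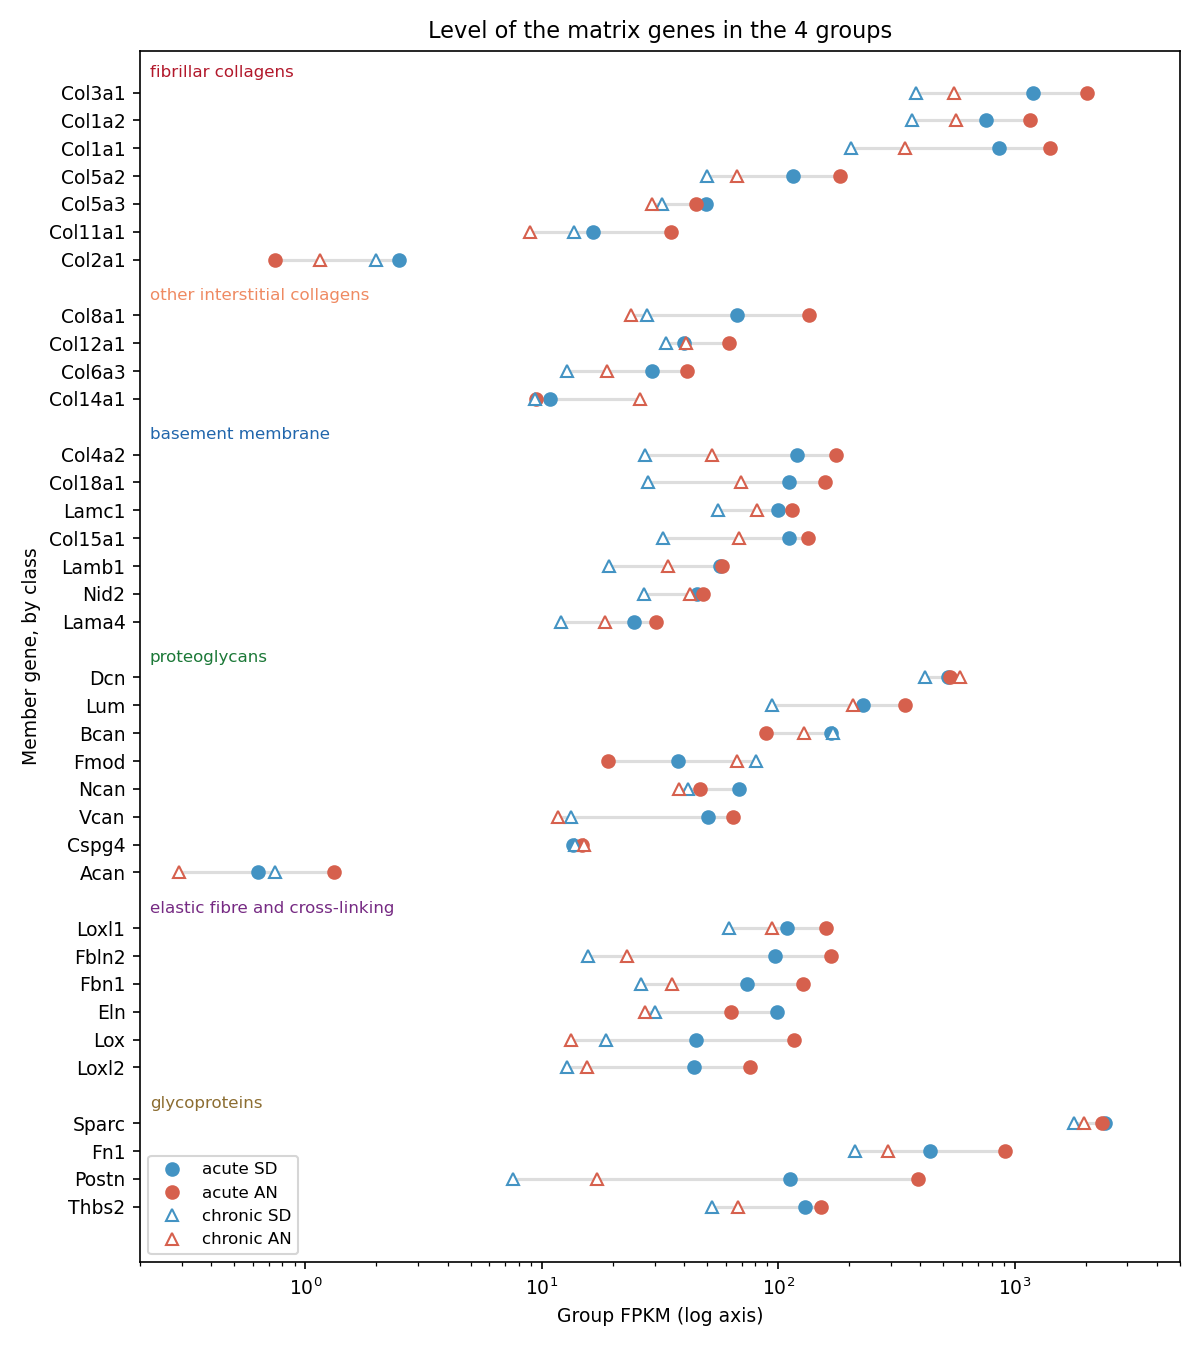
Group FPKM (horizontal, log axis) of the 36 tied members, by class and in order of mean FPKM. Filled circles are acute and open triangles chronic groups, with SD rats in blue and AN rats in red, and each point is 1 value for 3 rats. For most collagens the acute circles lie to the right of the chronic triangles, as in Col1a1 with 859 and 1408 FPKM against 203 and 344.

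The fibrillar collagens of types I and III, the bulk of scar collagen, were the most abundant collagens and were higher in AN rats in both phases. Col3a1 (chr9:44281582-44317831 on RN4), the chain of type III collagen, had an FPKM of 1191 (SD) and 2019 (AN) at 1 week and 381 (SD) and 555 (AN) at 8 weeks. Its level in AN rats was 1.69-fold that in SD rats at 1 week and 1.46-fold at 8 weeks. Col1a1 (chr10:83622438-83639368), the alpha 1 chain of type I collagen, had an FPKM of 859 (SD) and 1408 (AN) at 1 week and 203 (SD) and 344 (AN) at 8 weeks. Col1a2 (chr4:29393645-29428572), its alpha 2 partner, had an FPKM of 756 (SD) and 1161 (AN) at 1 week and 369 (SD) and 567 (AN) at 8 weeks. AN rats exceeded SD rats 1.64-fold and 1.69-fold for Col1a1, and 1.54-fold and 1.54-fold for Col1a2, in the acute and chronic phase. The FPKM of Col1a1 was above that of Col1a2 in both acute groups and below it in both chronic groups, on values normalized separately for each phase.

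The minor fibrillar chains did not share 1 pattern. Of all fibrillar collagens, only Col2a1 and Col11a1 were named directly, and the others were named by gene order. Col5a2, a chain of type V collagen that helps set fibril width, had an FPKM of 116 (SD) and 182 (AN) at 1 week and 49.9 (SD) and 66.8 (AN) at 8 weeks, with AN rats higher in both phases. Col5a3, another type V chain, was lower in AN rats, with a log2FC of -0.14 and -0.15. Col11a1 (chr2:209996467-210193379), a chain of type XI collagen, had an FPKM of 16.5 (SD) and 35.3 (AN) at 1 week and 13.7 (SD) and 8.94 (AN) at 8 weeks. It was 2.14-fold higher in AN rats at 1 week and 1.53-fold lower at 8 weeks. Col2a1, the collagen of cartilage, was near the minimum with an FPKM of 2.48 (SD) and 0.745 (AN) at 1 week and 1.99 (SD) and 1.15 (AN) at 8 weeks, and it was lower in AN rats in both phases. The median log2FC of the 7 fibrillar collagens was 0.66 at 1 week (from -1.73 to 1.09) and 0.42 at 8 weeks (from -0.79 to 0.76). With the 2 directly named genes alone the direction turned, with a median of -0.32 and -0.70. Both took their name from the part of the supplementary gene table sorted by the authors' calls, and their acute log2FC were opposed (-1.73 and 1.09). Their median is therefore no check on the collagens named by gene order. The locus of Col5a1 is listed on several rows, so no value was tied to it alone. The highest of these rows, which carries 2 identifiers, had an FPKM of 72.0, 115, 33.6 and 50.6, in the order SD and AN at 1 week, then SD and AN at 8 weeks.

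Among the other interstitial collagens, Col8a1 and Col14a1 differed most between strains, in different phases. Col8a1 (chr11:43604994-43733870), a short-chain collagen of vessel walls, had an FPKM of 66.7 (SD) and 135 (AN) at 1 week and 27.8 (SD) and 23.9 (AN) at 8 weeks. Its AN level was 2.03-fold the SD level at 1 week and 0.857-fold at 8 weeks. Col14a1 (chr7:91801534-92032966), which sits on the surface of collagen fibrils, had an FPKM of 10.8 (SD) and 9.42 (AN) at 1 week and 9.37 (SD) and 26.0 (AN) at 8 weeks. The other groups lay close together and the chronic AN group stood above them, 2.77-fold over chronic SD rats. Col12a1, another fibril-associated collagen, was listed at an FPKM of 39.9 (SD) and 62.2 (AN) at 1 week and 33.5 (SD) and 40.9 (AN) at 8 weeks. Col6a3, a chain of the beaded filaments of type VI collagen, had an FPKM of 29.2 (SD) and 41.0 (AN) at 1 week and 12.8 (SD) and 18.9 (AN) at 8 weeks. Both were higher in AN rats in each phase, with a log2FC between 0.29 and 0.64.

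The basement membrane genes lay further above SD rats in the chronic phase than in the acute phase. All 7 had a higher FPKM in AN rats in both phases, and their median log2FC was 0.28 at 1 week and 0.82 at 8 weeks. All 7 also had a larger log2FC in the chronic phase, as did 21 of the 35 members and 54.9% of all genes. Col18a1 (chr20:11920816-11982468), a heparan sulfate collagen of vascular basement membranes and the source of endostatin, had an FPKM of 111 (SD) and 157 (AN) at 1 week and 28.1 (SD) and 69.9 (AN) at 8 weeks. Col15a1 (chr5:63825907-63930633), a related collagen at the edge of the basement membrane, had an FPKM of 111 (SD) and 134 (AN) at 1 week and 32.7 (SD) and 68.5 (AN) at 8 weeks. Col18a1 was 1.41-fold higher in AN rats at 1 week and 2.49-fold at 8 weeks, and Col15a1 1.21-fold and 2.10-fold. In the chronic phase the endothelial marker Cdh5 had an FPKM of 101 in AN and 58.2 in SD rats, while the other 3 endothelial markers summed to 34.9 and 34.2. The log2FC was larger in the chronic than in the acute phase also for 3 of 4 endothelial markers and for all 6 Schwann cell, all 6 oligodendrocyte and all 6 neuron markers. The part of these markers in the basement membrane values was not tested.

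Col4a2 (chr16:82899206-83045102), a chain of the type IV collagen network whose upstream sequence is printed above, had an FPKM of 121 (SD) and 175 (AN) at 1 week and 27.3 (SD) and 52.3 (AN) at 8 weeks. Its AN level was 1.45-fold and 1.91-fold the SD level. The laminin chain Lamb1 had an FPKM of 56.7 (SD) and 58.1 (AN) at 1 week and 19.3 (SD) and 34.1 (AN) at 8 weeks. Lamb1 was thus nearly the same in both acute groups and 1.76-fold higher in AN rats in the chronic phase. Lama4, the laminin alpha chain of vessels, was at 24.6 (SD) and 30.4 (AN) at 1 week and 12.0 (SD) and 18.6 (AN) at 8 weeks on the FPKM scale. Lamc1, the gamma chain that most laminins contain, and Nid2, which links laminin to type IV collagen, showed the same order. Lamc1 had a log2FC of 0.19 at 1 week and 0.56 at 8 weeks, and Nid2 of 0.09 and 0.65. The locus of Lama1 is on 2 rows, and the higher of them had an FPKM of 6.89, 6.93, 3.28 and 8.10, in the same order of groups.

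The proteoglycans split into the small leucine-rich members, which bind collagen, and the large chondroitin sulfate proteoglycans of the nervous tissue. Lum (lumican, chr7:35083480-35090284), which regulates fibril spacing, had an FPKM of 229 (SD) and 345 (AN) at 1 week and 93.8 (SD) and 208 (AN) at 8 weeks, and it was 1.51-fold and 2.21-fold higher in AN rats. Dcn (decorin), a collagen binder that also sequesters TGF-beta, stood at an FPKM of 526 (SD) and 536 (AN) at 1 week and 418 (SD) and 586 (AN) at 8 weeks. Fmod (fibromodulin) went the other way, with an FPKM of 37.7 (SD) and 19.0 (AN) at 1 week and 80.7 (SD) and 66.9 (AN) at 8 weeks. Fmod was lower in AN rats, 1.99-fold at 1 week and 1.21-fold at 8 weeks.

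Of the large proteoglycans, the brain-specific Bcan (brevican) and Ncan (neurocan) were lower in AN rats. Bcan had an FPKM of 167 (SD) and 89.0 (AN) at 1 week and 171 (SD) and 128 (AN) at 8 weeks, which is 1.87-fold lower in AN rats at 1 week and 1.33-fold at 8 weeks. Neuron markers were lower in AN rats in both phases, and 2 of 3 astrocyte markers and all 6 oligodendrocyte markers also in the acute phase, where Gfap was 2.78-fold and Slc1a2 3.23-fold lower and the oligodendrocyte markers summed to 1356 against 2708. Their part in these values was not tested. Ncan had a log2FC of -0.54 and -0.12. Vcan (versican), which is also made by fibroblasts and oligodendrocyte precursors, had an FPKM of 50.3 (SD) and 64.5 (AN) at 1 week and 13.2 (SD) and 11.7 (AN) at 8 weeks. Its strain difference was small beside the gap between phases. Cspg4 (NG2), a mark of pericytes and oligodendrocyte precursors, lay between 13.6 and 15.1 FPKM in all groups. Acan (aggrecan), of perineuronal nets and cartilage, was below the minimum, with an FPKM of 0.629 (SD) and 1.32 (AN) at 1 week and 0.741 (SD) and 0.293 (AN) at 8 weeks. Acan is therefore in none of the counts that use the minimum. Fmod and Bcan were the proteoglycans named directly, and the others were named by gene order. The median log2FC of the 7 proteoglycans above the minimum was 0.03 at 1 week and -0.12 at 8 weeks, and that of the 2 directly named ones -0.95 and -0.34.

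**Figure D2:**
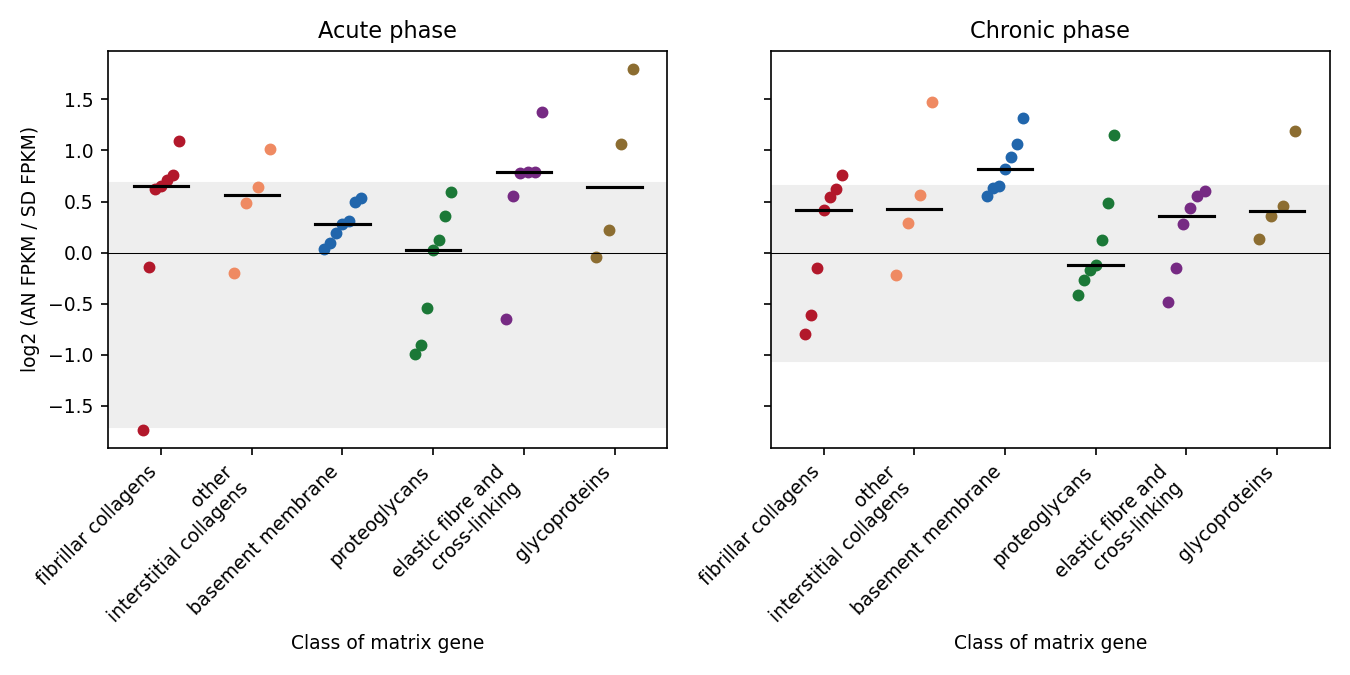
log2 ratio of AN to SD FPKM (vertical) of the 35 members with a mean FPKM of at least 1, by class (horizontal), in the acute (left) and chronic (right) phase. Points are genes, black bars are class medians and the grey band runs from the 5th to the 95th percentile of all genes. The median of the basement membrane class lies at 0.28 on the left and 0.82 on the right, while that of the proteoglycans lies near 0 on both sides.

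Genes of elastic fibres and cross-linking were mostly higher in AN rats in the acute phase, where their median log2FC was 0.79, against 0.36 in the chronic phase. Lox (chr18:47896674-48000849), the lysyl oxidase that cross-links collagen and elastin, had an FPKM of 45.1 (SD) and 117 (AN) at 1 week and 18.7 (SD) and 13.4 (AN) at 8 weeks. It was 2.60-fold higher in AN rats at 1 week and 1.40-fold lower at 8 weeks. Its relative Loxl2, which acts on type IV collagen, had an FPKM of 44.0 (SD) and 76.3 (AN) at 1 week and 12.8 (SD) and 15.5 (AN) at 8 weeks. Loxl1, which acts on elastic fibres, had an FPKM of 109 (SD) and 159.7 (AN) at 1 week and 61.7 (SD) and 93.9 (AN) at 8 weeks. Unlike Lox, both were higher in AN rats in each phase.

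Fbn1 (fibrillin 1), the microfibril scaffold of elastic fibres, had an FPKM of 73.8 (SD) and 127 (AN) at 1 week and 26.2 (SD) and 35.5 (AN) at 8 weeks. Fbln2 (fibulin 2), which binds fibrillin, had an FPKM of 96.6 (SD) and 167 (AN) at 1 week and 15.7 (SD) and 23.1 (AN) at 8 weeks. Both were higher in AN rats in both phases, with a log2FC in the acute phase of 0.78 and 0.79. Eln (elastin), the elastic core itself, had an FPKM of 99.0 (SD) and 63.1 (AN) at 1 week and 30.2 (SD) and 27.3 (AN) at 8 weeks. Eln was therefore 1.57-fold lower in AN rats in the acute phase, opposite to fibrillin.

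The glycoproteins held the widest range between groups. Postn (periostin, chr2:143537099-143568341), a matricellular protein of fibroblasts in healing wounds, had an FPKM of 113 (SD) and 392 (AN) at 1 week and 7.53 (SD) and 17.2 (AN) at 8 weeks. AN rats exceeded SD rats 3.48-fold in the acute phase, where the difference was the largest among the members, and 2.28-fold in the chronic phase. Fn1 (fibronectin, chr9:70702181-70771155), an early matrix on which collagen is assembled, had an FPKM of 437 (SD) and 912 (AN) at 1 week and 212 (SD) and 292 (AN) at 8 weeks, with AN rats 2.09-fold and 1.37-fold higher. Sparc, a collagen-binding protein that glia and vessels also make, was the most abundant member with an FPKM of 2419.6 (SD) and 2356 (AN) at 1 week and 1793 (SD) and 1962 (AN) at 8 weeks, and its strain ratios stayed within -0.04 and 0.13 on the log2 scale. Thbs2 (thrombospondin 2), an inhibitor of vessel growth, had an FPKM of 130.4 (SD) and 152 (AN) at 1 week and 52.6 (SD) and 67.3 (AN) at 8 weeks. The median log2FC of the 4 glycoproteins was 0.64 at 1 week and 0.41 at 8 weeks, and that of the 4 other interstitial collagens 0.56 and 0.42.

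Most matrix genes were lower at 8 weeks than at 1 week, 32 of 35 members in SD and 29 of 35 in AN rats, against 49.2% and 47.2% of all genes. The tables of the phases were normalized separately, so the ratios are a description. Over all genes the median log2 ratio of chronic over acute FPKM was 0.01 for SD and 0.03 for AN rats. In SD rats 21 of 35 members were at least 2-fold lower in the chronic phase, against 3.73% of all genes, and 1 was at least 2-fold higher (Fmod), against 3.06%. In AN rats 18 of 35 were at least 2-fold lower, against 5.89%, and 2 were at least 2-fold higher (Fmod and Col14a1), against 12.6%. The ratio was lowest for Postn, with a log2 of -3.90 in SD and -4.51 in AN rats. Fbln2 followed in SD rats with -2.62, and Lox in AN rats with -3.13.

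By class, the median log2 ratio of chronic over acute was -1.03 in SD and -1.45 in AN rats for the fibrillar collagens. For the basement membrane it was -1.55 in SD and -0.77 in AN rats. For the proteoglycans it was -0.33 in SD and 0.03 in AN rats, but 0.57 and 1.17 for the 2 directly named ones. The class median was thus lower in AN than in SD rats for the fibrillar collagens and higher for the basement membrane, although Col1a1 and Col1a2 had nearly the same ratio in both strains. The remaining classes had medians of -0.72 and -0.86 for the other interstitial collagens, -1.60 and -2.07 for elastic fibre and cross-linking genes, and -1.18 and -1.41 for glycoproteins. These ratios and the strain ratios are built from the same 4 values per gene, so neither adds to the other. Some markers of cell types differed between the phases as well, and their part in these values was not tested. Lower in the chronic phase were 8 of 10 fibroblast and mural cell markers in SD rats, against 49.2% of all genes. In AN rats it was 6 of 10, which is not far from the 47.2% of all genes. All 6 macrophage and microglia markers were lower in both strains.

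**Figure D3:**
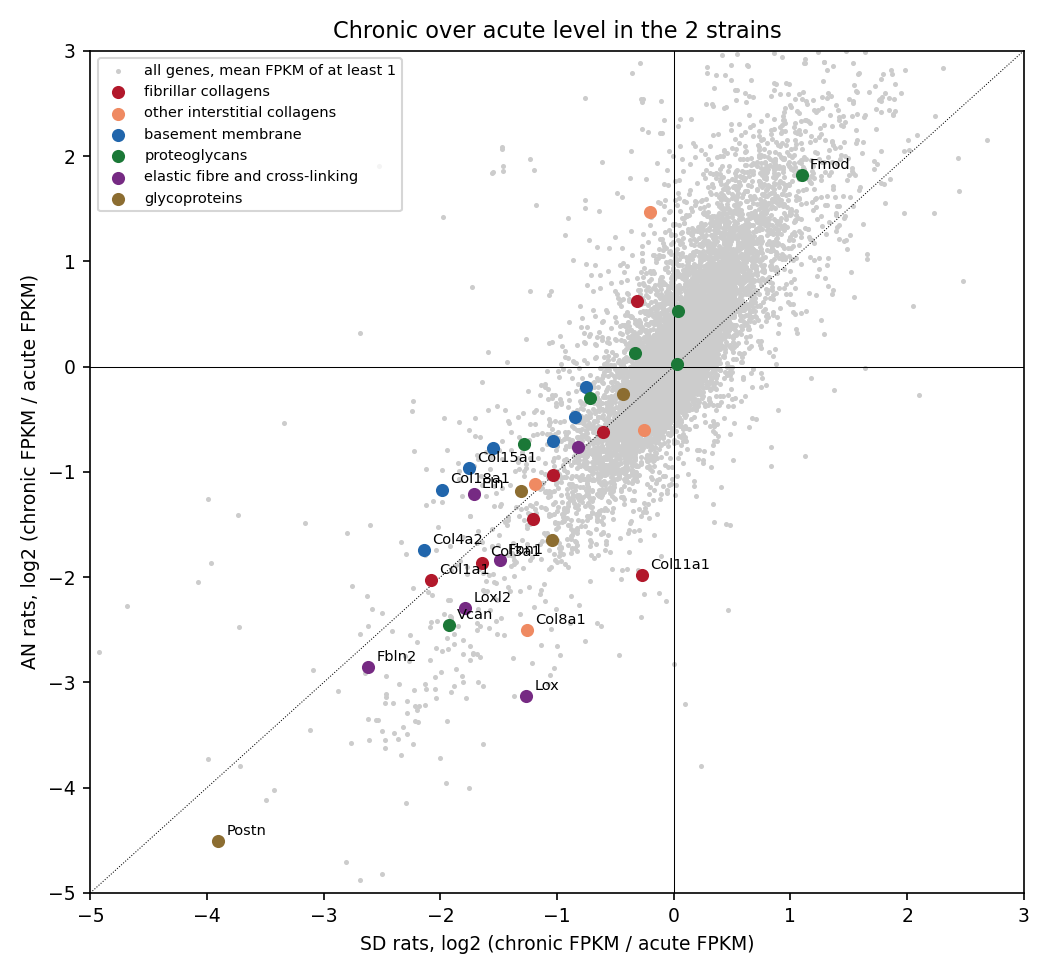
log2 of the chronic over the acute FPKM in SD (horizontal) and AN (vertical) rats, with the 35 members in colour by class and all genes with a mean FPKM of at least 1 in grey (axes from -5 to 3). The dotted line marks equal ratios, and names are given to members beyond 1.7 in either strain. Most members lie at negative values on both axes, Postn lowest at -3.90 and -4.51, while Fmod lies at 1.10 and 1.82.

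The strain difference was not the same in both phases for several members, and the class medians had different signs. The median of acute minus chronic log2FC was 0.01 for the fibrillar collagens, -0.56 for the basement membrane and -0.46 for the proteoglycans, against -0.04 for all genes. For elastic fibre and cross-linking genes it was 0.29, for glycoproteins 0.24 and for the other interstitial collagens 0.14. In 6 of 35 members the direction was opposite in the phases, against 31.1% of all genes. In 4 of these the values were also at least 1 apart, against 3.17%. Lox, Col11a1 and Col8a1 were higher in AN rats in the acute phase only, with a difference of 1.87, 1.71 and 1.24. Col14a1 was higher in the chronic phase only, with -1.67. The other members were Vcan and Sparc, whose log2FC lay between -0.17 and 0.36 in both phases.

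**Figure D4:**
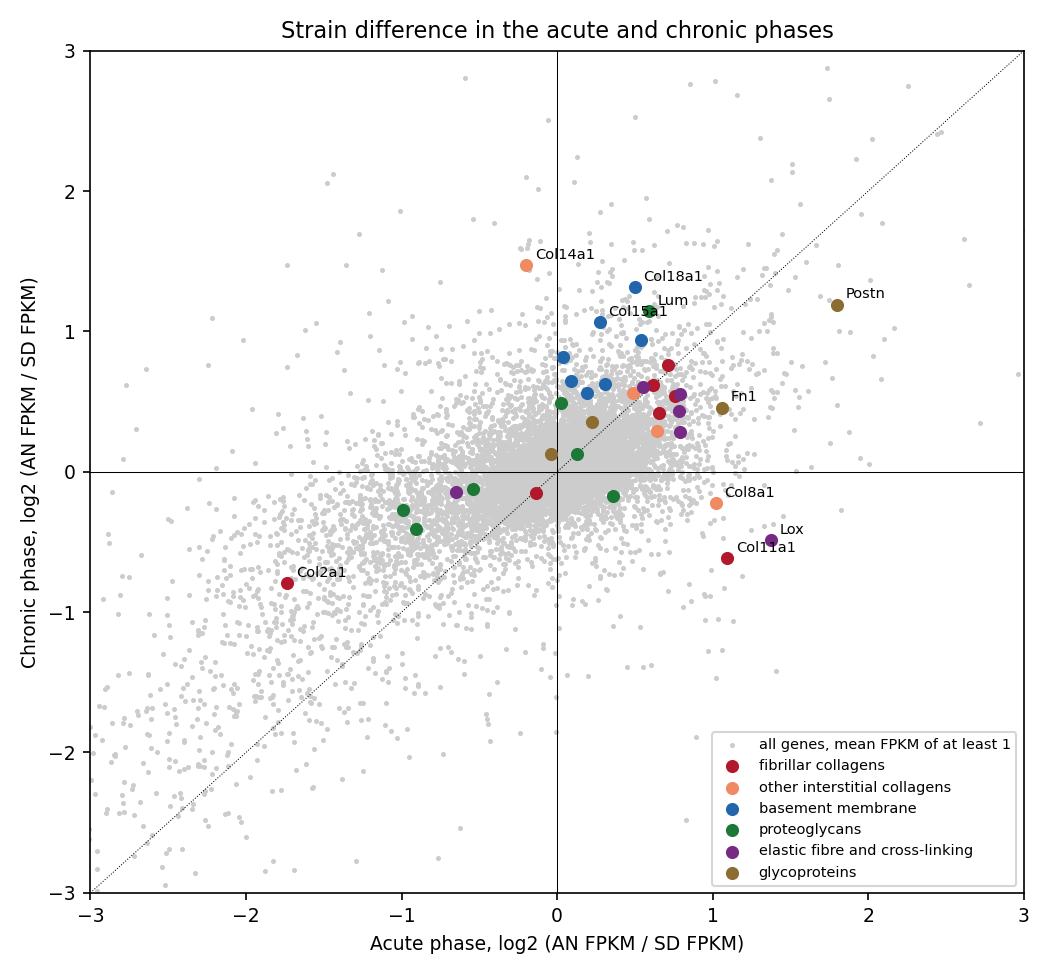
log2 ratio of AN to SD FPKM in the acute (horizontal) and chronic (vertical) phase, with the 35 members in colour by class and all genes with a mean FPKM of at least 1 in grey (axes from -3 to 3). The dotted line marks equal values, and members at or beyond 1 in either phase are named. The basement membrane genes lie above the line, and Lox, Col11a1 and Col8a1 lie at the lower right, with a chronic log2FC of -0.49, -0.61 and -0.22.

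Genes that make and process collagen were mostly higher in AN rats, as were Col1a1, Col1a2 and Col3a1. Of 18 listed, 12 were tied to a row, and 11 of these were higher in AN rats at 1 week, as were 11 at 8 weeks, against 49.8% and 51.5% of all genes, with a median log2FC of 0.60 and 0.62. Plod2, the lysyl hydroxylase of collagen telopeptides, had an FPKM of 21.7 (SD) and 53.0 (AN) at 1 week and 10.5 (SD) and 17.1 (AN) at 8 weeks, and was the 1 gene at least 2-fold higher in the acute phase. Pcolce, the enhancer of procollagen C-proteinase, had an FPKM of 215 (SD) and 336 (AN) at 1 week and 95.6 (SD) and 216 (AN) at 8 weeks, and was the 1 gene at least 2-fold higher in the chronic phase. Over all genes 1.78% and 2.05% were as much higher. None of the list was at least 2-fold lower, against 11.0% of all genes at 1 week and 5.35% at 8 weeks.

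Of the TGF-beta list, the pathway best known for driving matrix genes, 8 of 16 genes were tied. In the acute phase 8 were higher in AN rats and in the chronic phase 7, against 49.8% and 51.5% of all genes, with a median log2FC of 0.42 and 0.64. Ltbp2, a microfibril protein of the latent TGF-beta binding protein family, had an FPKM of 23.6 (SD) and 59.8 (AN) at 1 week and 7.37 (SD) and 20.2 (AN) at 8 weeks. Tgfbi, a secreted protein induced by TGF-beta, had an FPKM of 88.2 (SD) and 155 (AN) at 1 week and 51.2 (SD) and 103 (AN) at 8 weeks. Ltbp2 was at least 2-fold higher in AN rats in both phases, and Tgfbi in the chronic phase. That is 1 of 8 at 1 week, against 1.78% of all genes, and 2 of 8 at 8 weeks, against 2.05%.

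Chondroitin sulfate synthesis and link proteins gave 12 genes with a mean FPKM of at least 1 out of 14 tied and 19 listed. Their median log2FC was 0.15 at 1 week and -0.04 at 8 weeks. The genes at least 2-fold different were link proteins of brain matrix, with Hapln4 at an FPKM of 9.99 (SD) and 0.416 (AN) at 1 week and 11.3 (SD) and 1.65 (AN) at 8 weeks and Hapln2 at 89.6 (SD) and 32.1 (AN) at 1 week and 121 (SD) and 77.4 (AN) at 8 weeks. Both were at least 2-fold lower in AN rats in the acute phase, 2 of 12 against 11.0% of all genes, and Hapln4 also in the chronic phase, 1 of 12 against 5.35%. Of the integrins and other matrix receptors, 8 of 18 were tied, none differed 2-fold in either phase, against 1.78% of all genes higher and 11.0% lower at 1 week and 2.05% and 5.35% at 8 weeks, and the median log2FC was -0.18 and 0.09.

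Markers of cell types differed between the same groups, and their part in the matrix values was not tested. The summed FPKM of the 10 fibroblast and mural cell markers tied of 12 was 1397 (SD) and 1301 (AN) at 1 week and 1279 (SD) and 1239.9 (AN) at 8 weeks. The most abundant were S100a4, Tagln and Anpep, and 5 of 10 were higher in AN rats at 1 week and 7 of 10 at 8 weeks, against 49.8% and 51.5% of all genes, with a median log2FC of 0.06 and 0.32. The 1 marker of this list at least 2-fold lower in both phases was Thy1, which rodent neurons also express. That is 1 of 10, against 11.0% of all genes at 1 week and 5.35% at 8 weeks. None was 2-fold higher, against 1.78% and 2.05%. Without Thy1 the sum was 1257 (SD) and 1250.4 (AN) at 1 week and 1144 (SD) and 1202 (AN) at 8 weeks, so that its chronic direction turned. Without S100a4, which makes up most of the sum, it was 622 (SD) and 597 (AN) at 1 week and 411 (SD) and 384 (AN) at 8 weeks. Without both genes the direction turned in each phase, with 482 (SD) and 547 (AN) at 1 week and 276 (SD) and 346 (AN) at 8 weeks. Sums that leave out a gene were chosen after seeing the data. The 4 endothelial markers tied of 8 (Cdh5, Esam and Tek the most abundant) summed to 107 (SD) and 120.1 (AN) at 1 week and 92.4 (SD) and 136 (AN) at 8 weeks. Chronic AN rats had the highest sum, which rests on Cdh5 as given above. The log2FC of single markers in that phase ran from -0.21 to 0.79.

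Macrophage and microglia markers, 6 tied of 8 with Gpnmb, Cd68 and Csf1r the most abundant, summed to 5014 (SD) and 8056 (AN) at 1 week and 2883 (SD) and 4741 (AN) at 8 weeks. All 6 were higher in AN rats at 1 week, and 4 at 8 weeks, against 49.8% and 51.5% of all genes. Neuron markers (6 tied of 8) summed to 750.4 (SD) and 43.3 (AN) at 1 week and 707 (SD) and 140.0 (AN) at 8 weeks, and all 6, with Nefl, Snap25 and Nefm the most abundant, were at least 2-fold lower in AN rats in both phases, against 11.0% and 5.35% of all genes. Oligodendrocyte markers (6 of 8, led by Cldn11, Cnp and Mag) summed to 2708 (SD) and 1356 (AN) at 1 week and 2655 (SD) and 2702 (AN) at 8 weeks. At 8 weeks 4 of the 6 were lower in AN rats and 2 were higher, against 51.5% of all genes higher, with a median log2FC of -0.26. Without Cldn11 the sum at 8 weeks was 1806 (SD) and 1579.8 (AN). Schwann cell markers (6 of 7, led by S100b, Pmp22 and Prx) summed to 2879.9 (SD) and 965 (AN) at 1 week and 5116 (SD) and 3879.6 (AN) at 8 weeks. At 8 weeks 4 of the 6 were higher in AN rats, against 51.5% of all genes, with a median log2FC of 0.21. Without S100b, which makes up most of the sum, it was 707 (SD) and 330 (AN) at 1 week and 656 (SD) and 720.4 (AN) at 8 weeks. Both lists were lower in acute AN rats in every tied gene.

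The astrocyte markers Gja1 and Slc1a2 summed to 269.8 (SD) and 247 (AN) at 1 week and 384 (SD) and 340.5 (AN) at 8 weeks. Gfap, the defining astrocyte marker, is listed at 0 in chronic SD rats and at 3957, 1424 and 5824 FPKM in acute SD, acute AN and chronic AN rats, so it is in no sum and has no chronic strain ratio. The 0 is not read here as a lack of Gfap RNA. The paper reports GFAP as not differentially expressed between the strains in either phase. In the acute phase Gfap was 2.78-fold and Slc1a2 3.23-fold lower in AN rats, while Gja1, which makes up most of the sum, was 1.09-fold higher. Cartilage and bone markers (3 genes above the minimum, Col9a2, Bglap and Sp7) summed to 14.7 (SD) and 4.36 (AN) at 1 week and 9.29 (SD) and 6.33 (AN) at 8 weeks. Skeletal muscle markers (3 genes, Tnnt3, Acta1 and Tnni2) summed to 27.8 (SD) and 9.20 (AN) at 1 week and 18.4 (SD) and 8.13 (AN) at 8 weeks. Both sums were lower in AN rats in each phase, as was Col2a1.

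**Figure D5:**
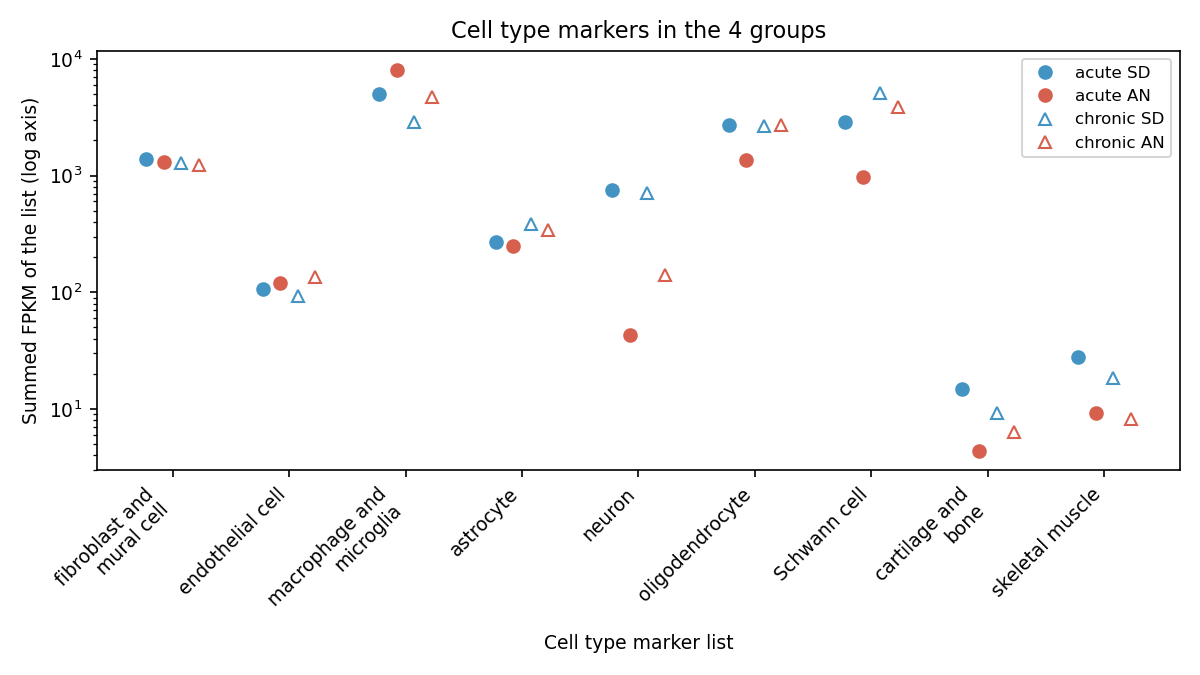
Summed FPKM (vertical, log axis) of 9 cell type marker lists (horizontal) in the 4 groups, with filled circles for acute and open triangles for chronic groups, SD in blue and AN in red. Only genes with a mean FPKM of at least 1 and above 0 in every group are summed. The neuron list shows the widest gap between strains, 750.4 against 43.3 in the acute phase, while the fibroblast and mural cell list lies between 1239.9 and 1397, most of it S100a4.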

How the data were processed

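The authors removed adapters with cutadapt, aligned the read pairs with TopHat 1.5.0 to rat build RN4, assembled transcripts with Cufflinks 0.0.6 using quartile normalization, merged them by time point and compared the strains with Cuffdiff. The FPKM values the authors deposited are 1 per group of 3 rats, in a table for each phase, normalized separately. The authors' own fold changes, test statistics, p-values and q-values are also in the tables and were not used. Values for single rats were not used here, so no test was made, and the reads behind a gene are unknown.

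From the FPKM columns, log2 ratios were computed without a pseudocount in Python 3.11.15 with numpy 2.4.6 and pandas 2.3.3, and left out where either group is at 0. A gene counted as different at 2-fold or more with a mean FPKM of at least 1. The calculation was tested on simulated data. The tables list RGD (Rat Genome Database) identifiers. Symbols came from the copied part of the supplementary gene table (1800 genes), from synonyms (2676) and from gene order along the chromosome (7141). Of 1500 held-out names, 1028 were given a symbol by order and 1022 of these were right. Loci on several rows were not named. Gene coordinates follow the tables (RN4, first base 1). Promoter sequences are from RefSeq on GRCr8.

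The members, classes and gene lists were chosen with earlier results of these data known, and the naming settings with the held-out accuracy and the members in view. Every tied member was named. Values in all groups were given for members that differed 2-fold between strains or phases and for the 2 most abundant of a class. From pathway lists, genes that differed 2-fold between strains were named, at most 5 a list, and from marker lists the 3 most abundant. Exceptions, named after their values were seen, are Acan, Bcan, Cspg4, Thy1 and Gfap. Some genes of the fixed lists are not reported here and were left out of the list counts and sums.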

Additional observations from a re-analysis of the deposited data

Results flagged for a closer look

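In 4 members the strain difference had opposite directions in the phases and the log2FC values were at least 1 apart, against 3.17% of all genes, and the difference was not tested because each group has 1 value for 3 rats. Lox was higher in AN rats in the acute and lower in the chronic phase, with acute minus chronic log2FC of 1.87. For Col11a1 this difference was 1.71 and for Col8a1 1.24, in the same direction. Col14a1 was lower in AN rats in the acute and higher in the chronic phase, with -1.67.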

How the results depend on the processing

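Of 108 values under alternative settings for 16 results, 89 moved by less than 0.2 on the log2 scale (1.5 times for a count). Restricting the members to the 11 with a direct name left 2 fibrillar collagens (Col2a1 and Col11a1), 2 proteoglycans (Fmod and Bcan) and 1 basement membrane gene (Lama4), and the part of the supplementary table used for names is sorted by the authors' calls. With these, the median log2FC of fibrillar collagens was -0.32 at 1 week and -0.70 at 8 weeks, and that of proteoglycans -0.95 and -0.34. The medians of chronic over acute were -0.30 in SD and -0.68 in AN rats for fibrillar collagens, -1.04 in SD rats for the basement membrane, and 0.57 and 1.17 for proteoglycans, and 1 member was at least 2-fold higher in AN rats in the chronic phase. The direction of the fibrillar strain medians therefore rests on members named by gene order. The directly named fibrillar collagens and proteoglycans all come from the sorted part, so their medians are no check on the members named by order. With 1.5-fold in place of 2-fold, 14 members were higher and 4 lower in the acute phase, and 12 higher and 2 lower in the chronic phase. Col2a1, the 1 member 2-fold lower in the acute phase, was lost (0 members) with a pseudocount of 1 or a mean FPKM of at least 5. With no minimum on FPKM, 1 member (Acan) was 2-fold lower in the chronic phase. With a mean FPKM of at least 5 the fibrillar median of chronic over acute in AN rats was -1.65. Adding the highest row of the Lama1 locus, an alternative chosen after seeing the data, gave -1.31 for the basement membrane in SD rats. A pseudocount of 0.1 and centring on the median of all genes moved none of these results. Leaving out single rats was not run, and no paired analysis was possible because the columns hold 1 value for each group. With 1 value a group, the size of a difference that could arise between rats of a strain is unknown.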
